A study of Mus musculus with 6 samples.

Results

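The genes described here are 10 cytokine genes of type 2 immunity and of group 2 innate lymphoid cells (ILC2s): Il4, Il5, Il13, Il9, Il2, Il3, Il6, Csf2, Areg and Lif. They were chosen by symbol, and all 10 were among the 14416 genes of the count table. Polyadenylated RNA of innate lymphoid cells (ILCs) gated as Lin-Thy1.2+, sorted out of C57BL/6J mouse lungs, was sequenced by Smart-seq2 in 3 samples of Rbm3 knockout mice (RBM3KO) and 3 samples of wild-type mice (WT). Mice of both genotypes received 25 µg of the mould allergen Alternaria alternata 3 times over 7 days, and no sample of the series came from unchallenged mice. The RNA-binding protein RBM3 is induced by cold, and the study is about its part in ILC activity and inflammation of the lung. How the knockout was made, how old the mice were and whether animals were pooled is not stated in the labels.

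ILC2s are lymphocytes without rearranged antigen receptors that answer alarm signals of the epithelium, such as IL-33, with rapid cytokine release. IL-5 recruits and sustains eosinophils, IL-13 and IL-4 act through the shared IL-4 receptor alpha chain on epithelium, macrophages and B cells, IL-9 supports mast cells and ILC2s themselves, and amphiregulin promotes epithelial repair. Many cytokine messages carry AU-rich elements, repeats of the pentamer AUUUA in the 3′ untranslated region (3′ UTR), to which proteins bind that set the decay of the message.

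Every one of the 10 messages held at least 1 pentamer ATTTA (as DNA) in the 3′ UTR of the GENCODE M21 transcript with the longest coding sequence. Together they held 49 pentamers in 6882 bases, or 7.12 per kb, against 1.79 per kb over the 10799 tested genes with a 3′ UTR. The 9-base form TTATTTATT, on the strand of the message and overlapping the pentamer, was present in 5 of the 10, against 7.04% of those tested genes. These sites are shown because the study removes an RNA-binding protein; a match is a sequence description and not a measured site. Capitals mark the 9 bases:
Il13: cttcttgatcTTATTTATTatggttgtgt
Il2: ttatctgaaaTTATTTATTatattgaatt
Csf2: ttttaaatatTTATTTATTtatttattta
Areg: tatttaagtgTTATTTATTttatagctca
Lif: aaaggggcctTTATTTATTatttaaaact
Csf2 held 4 overlapping copies of the 9-base form and 9 pentamers in 317 bases, a number that 0.0% of the 915 tested genes with a 3′ UTR within 20% of that length reached. Areg had 4 pentamers in 253 bases, which 0.625% of the genes of like length reached, and Il9 had 3 in 86 bases, which 0.385% reached. Il5 had 7 in 1092 bases and Il6 had 6 in 427 bases, both without the 9-base form. Lif was the least enriched, with 7 pentamers in 3180 bases, a number that 34.4% of genes of like length reached.

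The promoters of Il5 and Il13 are shown because these messages, after Areg, were the most abundant per length and because both genes lie in the type 2 cytokine cluster, on either side of Rad50. The windows run from 250 bases before to 50 bases after the RefSeq start site (GRCm38.p6). Capitals mark the GATA motif, searched on both strands as AGATAA or as AGATAG, and likewise as TGATAA or as TGATAG, which GATA3, the lineage factor of ILC2s, can bind.
Il5, chr11:53720544-53720843, plus strand: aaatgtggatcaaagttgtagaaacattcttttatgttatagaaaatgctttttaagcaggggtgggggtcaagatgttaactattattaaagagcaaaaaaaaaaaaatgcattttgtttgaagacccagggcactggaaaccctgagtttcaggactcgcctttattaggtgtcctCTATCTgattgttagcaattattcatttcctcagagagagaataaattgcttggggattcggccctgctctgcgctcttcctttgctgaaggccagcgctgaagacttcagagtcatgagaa
Il13, chr11:53634653-53634952, minus strand: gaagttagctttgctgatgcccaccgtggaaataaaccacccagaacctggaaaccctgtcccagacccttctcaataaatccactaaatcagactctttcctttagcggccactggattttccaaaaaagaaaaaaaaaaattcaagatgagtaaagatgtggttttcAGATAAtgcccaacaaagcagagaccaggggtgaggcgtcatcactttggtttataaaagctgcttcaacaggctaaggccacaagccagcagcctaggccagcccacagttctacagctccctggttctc
The motif began 72 bases before the start site in Il5 and 81 bases before it in Il13. Of the 10 cytokine genes, 7 held the motif in such a window, against 29.8% of all 32851 RefSeq promoter windows of this length. The first count is per gene, over any of its windows (Il4 has several), and the second is per window, so the units differ. Il9, Areg and Lif had no match.

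The libraries held between 7498247 (RBM3KO replicate 3) and 25068137 (WT replicate 3) counts, and a count of 0 allows up to 3 counts, or between 0.117 and 0.404 CPM (counts scaled to a common library size). Such floors cover counting error only, since reads without molecular identifiers are not independent molecules. Rbm3 stood at 26.8 ± 4.63 CPM in RBM3KO and 292 ± 22.0 CPM in WT (SD, n = 3 each), so the groups did not overlap and every library matched its label. The ILC markers Thy1, Id2, Gata3, Il7r and Il1rl1 were present in every library. Over all tested genes, 28 rose and 114 fell in RBM3KO, Rbm3 included, or 0.246% and 1.0%.

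Levels per length put the cytokine messages over a wide range. In RBM3KO the order by CPM per kb of exon was Areg (1340.0 ± 185), Il5 (569 ± 32.4), Il13 (298 ± 87.6), Lif (52.3 ± 8.02), Il4 (38.2 ± 2.26), Il9 (13.2 ± 11.1), Il6 (13.1 ± 1.39), Csf2 (11.95 ± 4.18), Il2 (6.28 ± 1.46) and Il3 (0.0316 ± 0.0548; SD, n = 3). Neighbours in this order did not overlap between libraries except Il9 with Il6 and Il6 with Csf2. In WT the first 5 were the same, at 836 ± 271, 408 ± 54.6, 204 ± 24.0, 34.5 ± 6.06 and 18.6 ± 5.34 CPM per kb, and the libraries overlapped from Il2 through Csf2 and Il9 to Il3. Areg made up 50.6% to 60.4% of the summed CPM per kb of the 10 messages in RBM3KO libraries and 47.5% to 59.5% in WT libraries.

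Of the 10 cytokine genes, 9 could be tested and 0 passed, while most stood higher in RBM3KO. The share of all tested genes that passed was 1.25%, and 0.246% passed as higher (edgeR quasi-likelihood test, Benjamini-Hochberg adjusted p under 0.05). Il3 was below the filter on low counts and was not tested. All 9 estimates were above 0, as were those of 50.9% of all tested genes, with a median log2 fold change of 0.60 against 0.01 over all tested genes. For 7 of the 10 every RBM3KO library lay above every WT library, which held for 8.43% of all tested genes, and for Il3 every one lay below, which held for 10.5%. At an unadjusted p under 0.05, 7 were higher, against 5.46% of all tested genes. The same 6 libraries stand behind all of these values, so the genes are not separate observations.

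**Figure D1:**
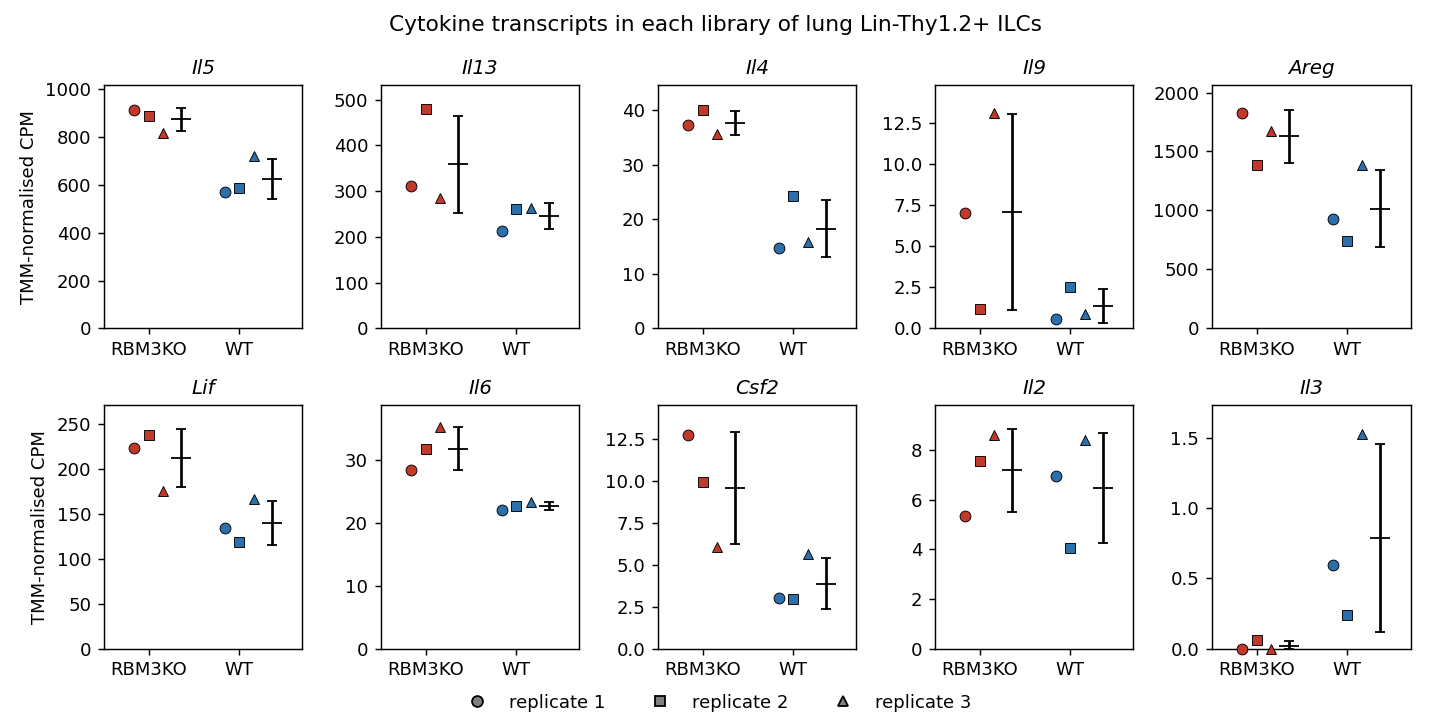
TMM-normalised CPM of each cytokine gene in each library, RBM3KO in red and WT in blue; symbols mark replicates and black bars give the mean ± SD over 3 libraries, cut at 0. The groups do not overlap for Il5, Il13, Il4, Areg, Lif, Il6 and Csf2, which are higher in RBM3KO, and for Il3, which is lower.

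Il5 had 914, 891 and 818 CPM in RBM3KO replicates 1, 2 and 3, against 570.2, 587 and 723 CPM in WT replicates 1, 2 and 3. The groups did not overlap, and the gap between the lowest RBM3KO and the highest WT library was 95.3 CPM. Its log2 fold change was 0.48 (95% interval 0.25 to 0.71), a 1.40-fold difference, at an edgeR adjusted p of 0.0602, just above the threshold. It passed at an adjusted p of 0.0259 with no filter on low counts, 0.0272 at 10 CPM or more in 3 libraries, 7.75e-04 with DESeq2, 0.0353 with limma-voom, 0.0355 at equal depth and 0.0341 without WT replicate 3. Across all alternatives the estimate ran from 0.42 to 0.59 and the adjusted p from 7.75e-04 to 0.291.

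Il13, which drives mucus production and airway reactivity, had 311, 479 and 285 CPM in RBM3KO and 212, 262 and 263 CPM in WT. RBM3KO replicate 2 stood well above the other libraries, and the remaining RBM3KO libraries lay closer to WT. The log2 fold change of 0.55 (95% interval 0.15 to 0.94, edgeR adjusted p = 0.217) came to 0.28 without that library. DESeq2 called it (adjusted p = 0.0480; range over all alternatives 0.0480 to 0.565). Il13 held 0.687 of the CPM per kb of Il5 in RBM3KO replicate 2, against 0.434 and 0.444 in RBM3KO replicates 1 and 3 and 0.475, 0.568 and 0.465 in WT replicates 1, 2 and 3. The ratio overlapped between the genotypes.

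Il4, the cytokine of IgE class switching, had 37.3, 39.9 and 35.5 CPM in RBM3KO and 14.6, 24.3 and 15.9 CPM in WT. The RBM3KO libraries lay within a narrow band, all above WT. The log2 fold change was 1.04 (95% interval 0.46 to 1.63, edgeR adjusted p = 0.106), or 2.06-fold, the largest among the cytokines with a mean of at least 10 CPM. DESeq2 called it (adjusted p = 0.0206; range over all alternatives 0.0206 to 0.385), at estimates between 0.91 and 1.30 in every alternative.

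Il9 had 6.98, 1.19 and 13.1 CPM in RBM3KO and 0.591, 2.53 and 0.901 CPM in WT. The mean was 5.28 times higher in RBM3KO, but RBM3KO replicate 2 lay below WT replicate 2, and RBM3KO replicate 2 was also the library with the most Il13. The raw counts behind these values were 107, 20 and 97 in RBM3KO and 8, 43 and 23 in WT. The log2 fold change of 2.39 had a 95% interval from 0.23 to 4.55 (edgeR adjusted p = 0.349), and it ran from 1.6 to 3.21 across the alternatives, none of which called it.

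Areg had 1829, 1385 and 1670.15 CPM in RBM3KO and 923, 742 and 1381 CPM in WT. The groups were separated by 3.51 CPM only, because WT replicate 3 almost reached RBM3KO replicate 2. The log2 fold change was 0.68 (95% interval 0.26 to 1.10, edgeR adjusted p = 0.146). Areg passed without WT replicate 3 (0.97, adjusted p = 0.0199). It also passed in the edgeR fit with replicate number as a block (0.72, adjusted p = 0.0375), though the labels state no such pairing. The adjusted p over all alternatives ran from 0.0199 to 0.458. Lif, a cytokine of the IL-6 family, had 223, 237 and 175 CPM in RBM3KO and 135, 118 and 166 CPM in WT. Its log2 fold change was 0.60 (95% interval 0.26 to 0.94, edgeR adjusted p = 0.111). DESeq2 called Lif (adjusted p = 0.0136; range over all alternatives 0.0136 to 0.385).

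WT replicate 3 was the highest WT library for 8 of the 10 cytokine genes, all but Il4 and Il9. Leaving that library out gave 2 cytokine calls, Il5 and Areg, against 0.152% of genes called higher in that fit. DESeq2 gave 4, Il4, Il5, Il13 and Lif, against 1.34% of genes called higher. Il5 alone passed with no filter, at the 10 CPM filter, with limma-voom and at equal depth, where 0.333%, 0.766%, 0.457% and 0.375% of genes were called higher. Areg alone passed with replicate number as a block, where 0.272% of genes were called higher.

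Il6, an inflammatory cytokine, had 28.5, 31.8 and 35.3 CPM in RBM3KO and 22.1, 22.7 and 23.4 CPM in WT. The WT libraries agreed within 2.90% (SD over mean), the tightest of the 10 genes, and all lay below RBM3KO. The log2 fold change of 0.49 had a 95% interval from -0.02 to 0.99 (edgeR adjusted p = 0.422). Csf2, encoding GM-CSF, a growth factor of myeloid cells, had 12.7, 9.91 and 6.06 CPM in RBM3KO and 3.03, 2.94 and 5.64 CPM in WT. The groups were separated by 0.418 CPM, and the log2 fold change was 1.30 (95% interval 0.12 to 2.48, edgeR adjusted p = 0.349).

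Il2, the T cell growth factor, was the one tested cytokine near 0, with 5.35, 7.58 and 8.61 CPM in RBM3KO and 6.95, 4.06 and 8.42 CPM in WT. The genotypes overlapped, and the log2 fold change of 0.15 had a 95% interval from -0.96 to 1.25 (edgeR adjusted p = 0.958). Its sign turned without RBM3KO replicate 3 and without WT replicate 2. Il3, a growth factor of basophils and mast cells, ran the other way, with 0, 1 and 0 raw counts in RBM3KO and 8, 4 and 39 in WT. The ratio of RBM3KO to WT, with reads pooled over libraries and relative to total counts, was 0.0268 (exact 95% interval 0.000667 to 0.156, counting error only). That interval takes reads as independent and leaves out the spread between libraries, so it is too narrow. WT replicate 3 held most of these reads. Without the filter, edgeR placed it at -4.71 on the log2 scale, with an SE of 2.69 and an adjusted p of 0.541.

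**Figure D2:**
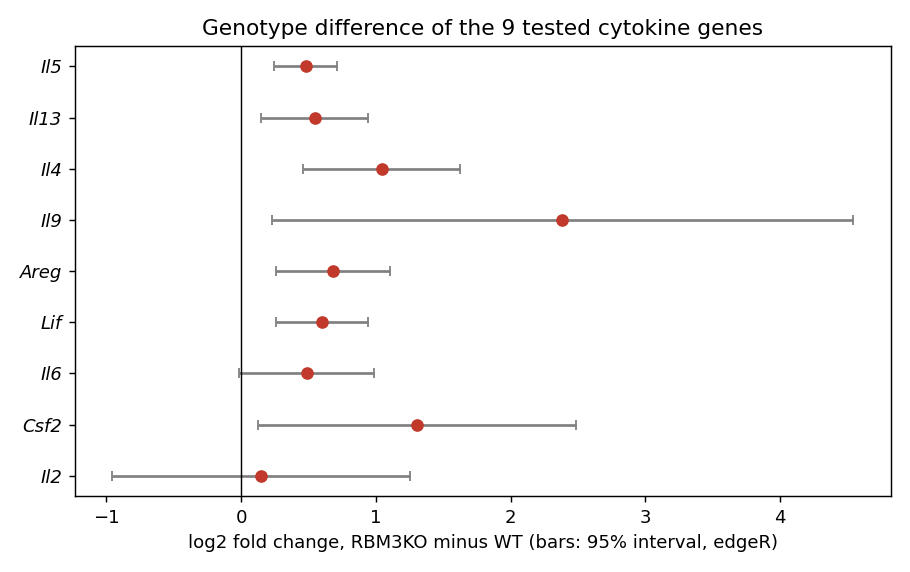
Log2 fold change (RBM3KO minus WT) of the 9 tested cytokine genes from the edgeR fit over all genes, with 95% intervals that are not adjusted for multiple genes. Intervals of Il6 (-0.02 to 0.99) and Il2 (-0.96 to 1.25) include 0, and that of Il9 (0.23 to 4.55) is the widest.

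**Figure D3:**
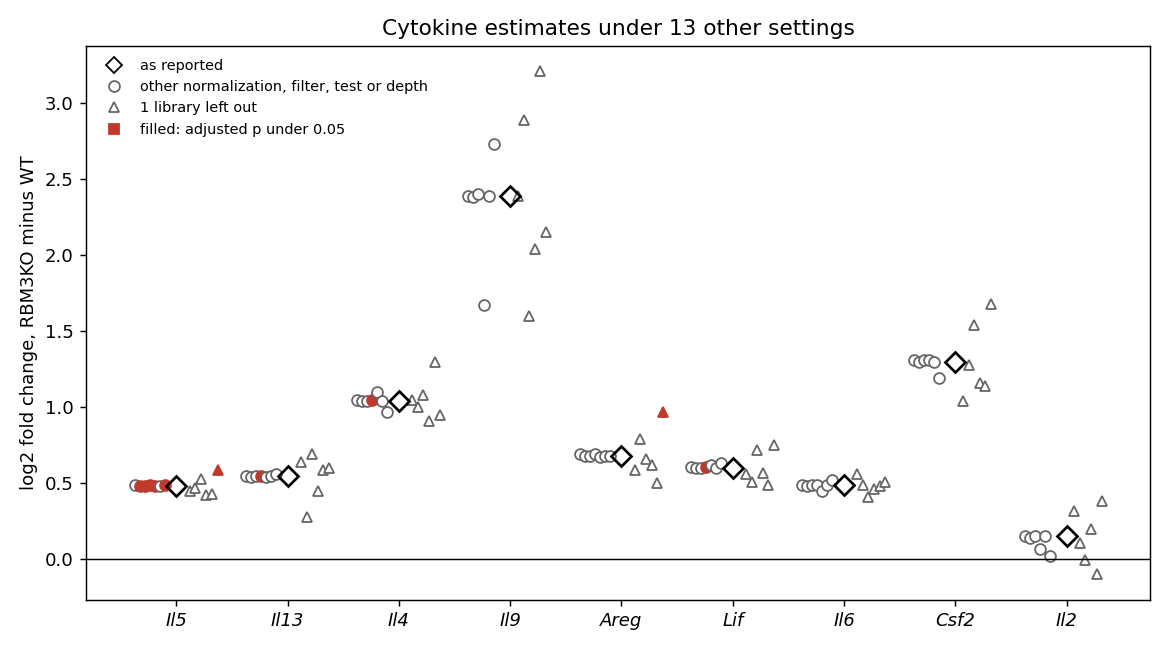
Log2 fold change (RBM3KO minus WT) of the 9 tested cytokine genes as reported in the text above (diamonds). Circles are other normalizations, filters, tests or depth, and triangles have 1 library left out. Filled symbols have an adjusted p under 0.05. The fit with replicate number as a block is not drawn. Among the settings drawn, Il5 is filled in 6, Il4, Il13 and Lif with DESeq2 and Areg without WT replicate 3, and the estimates of all genes but Il2 stay above 0; Il9, Csf2 and Il2 have no value at 10 CPM or more in 3 libraries.

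Of the 10 genes, 5 lie in a cluster on chromosome 11 (mm10 coordinates from GENCODE M21). Il4 (53602982 to 53618669) and Il13 (53631324 to 53634702) are 12.7 kb apart, Il5 (53720794 to 53725106) follows after 86.1 kb, Csf2 (54247271 to 54249667) after another 522.2 kb, and Il3 (54265303 to 54267277) 15.6 kb beyond it. Rad50, a DNA repair gene whose introns hold the locus control region of Il4, Il13 and Il5, stood at 26.2 ± 7.16 CPM in RBM3KO and 24.6 ± 6.20 CPM in WT (log2 fold change 0.08, SE 0.30, edgeR adjusted p = 0.959). Irf1, the interferon regulatory factor beyond Il5, stood at 229 ± 34.7 CPM in RBM3KO and 222 ± 20.1 CPM in WT (0.05, SE 0.13, adjusted p = 0.942). Kif3a, a kinesin gene beside Il4, stood at 11.2 ± 1.22 CPM in RBM3KO and 11.1 ± 3.51 CPM in WT (0.02, SE 0.38, adjusted p = 0.993). The signs of these 3 turned under some alternatives. Sept8, a septin gene, was the neighbour closest to the test, at 82.0 ± 9.63 CPM in RBM3KO and 57.4 ± 2.07 CPM in WT (0.51, SE 0.16, adjusted p = 0.178). Of the 13 tested neighbours within 250 kb of the cluster, 0 passed and 1 had an unadjusted p under 0.05, against 12.3% of all tested genes. Their log2 fold changes ran from -0.35 to 0.85 with a median of 0.27, and 10 were above 0 and 3 below. The highest were Pdlim4 (0.85, SE 1.47), at 1.61 CPM in RBM3KO and 0.896 CPM in WT, and Slc22a5 (0.81, SE 0.46). Both estimates lay above those of Il13 and Il5, with larger SEs than those of Il13 (0.18) and Il5 (0.11). Whether the cytokines differ from their neighbours was not tested.

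**Figure D4:**
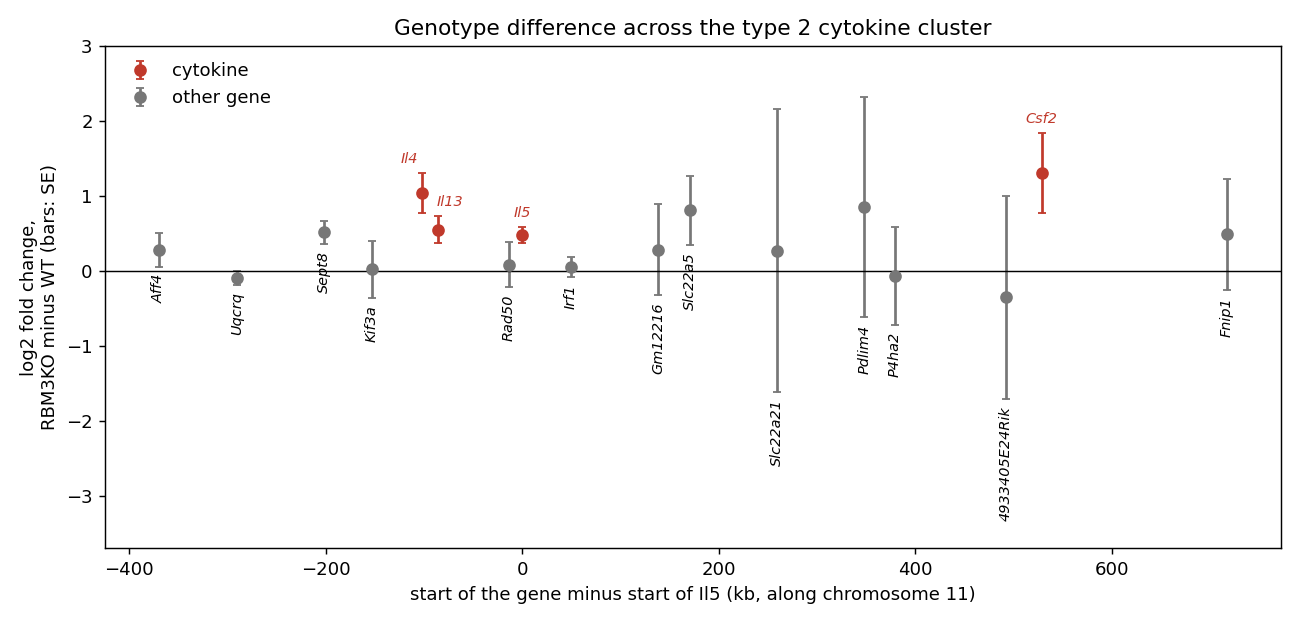
Log2 fold change (RBM3KO minus WT, ± SE) of the tested genes around the type 2 cytokine cluster, plotted by the distance of each gene's start from the start of Il5 in kb. The cytokines Il4, Il13, Il5 and Csf2 lie at 1.04, 0.55, 0.48 and 1.30, Kif3a, Rad50 and Irf1 beside them lie between 0.02 and 0.08, and the 13 neighbours together span -0.35 to 0.85.

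The 9-base AU-rich form did not sort the cytokines by their difference. Of the tested members, those that carry it had log2 fold changes of 0.55 (Il13), 0.15 (Il2), 1.30 (Csf2), 0.68 (Areg) and 0.60 (Lif), and those without it 1.04 (Il4), 0.48 (Il5), 2.39 (Il9) and 0.49 (Il6). Of all 760 tested genes with the 9-base form, 3 rose and 6 fell, and 13.3% had every RBM3KO library above every WT library. Of the 10039 tested genes with a 3′ UTR and without that form, 23 rose and 106 fell, and 8.15% were separated in this way. The median log2 fold changes were 0.09 with and 0.00 without the form. Genes with and without the form differ in 3′ UTR length, whose part was not tested.

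Among the receptors of these cytokines, 1 of 10 tested rose, against 0.246% of all tested genes. This was Il2rg, the common gamma chain that the receptors of IL-2, IL-4 and IL-9 share. It stood at 2646, 2968 and 2594 CPM in RBM3KO and 2105, 2108 and 2024 CPM in WT (0.40 on the log2 scale, SE 0.08, edgeR adjusted p = 0.0393). Leaving out any 1 of the 6 libraries ended that call (adjusted p 0.0506 to 0.194), as did replicate number as a block (0.0535). The other 9 receptors did not pass. Of 18 tested receptors that induce or tune ILC2 cytokines, 1 rose (0.246% of all tested genes did) and 17 did not pass. Their median log2 fold change was 0.30 against 0.01 over all tested genes, and 17 estimates were above 0 (50.9% of all tested genes). For 8 every RBM3KO library lay above every WT library (8.43% of all tested genes). At an edgeR unadjusted p under 0.05, 9 were higher (5.46% of all tested genes). The gene that rose was Ptgir, the prostacyclin receptor, at 213, 212 and 257 CPM in RBM3KO and 147, 139 and 163 CPM in WT (0.60, SE 0.12, edgeR adjusted p = 0.0393), a call lost when any 1 library was left out and with the non-robust fit.

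None of 25 regulators of type 2 cytokine transcription passed, at a median log2 fold change of 0.12. At an unadjusted p under 0.05, 8 of them were higher and 1 lower, against 5.46% and 6.87% of all tested genes. Junb, an AP-1 factor, stood at 7501 ± 513 CPM in RBM3KO and 6153 ± 948 CPM in WT, and Bhlhe40 at 2657 ± 264 CPM in RBM3KO and 2048 ± 165 CPM in WT (adjusted p = 0.274 and 0.102). Of 18 regulators of cytokine mRNA stability, 1 fell, against 1.0% of all tested genes, and 17 did not pass, with a median log2 fold change of 0.08. Pcbp1, a poly(C)-binding protein, fell to 69.3, 104 and 136 CPM in RBM3KO, against 340.07, 369.9 and 459 CPM in WT (log2 fold change -1.92, SE 0.21, edgeR adjusted p = 0.00415). Of 18 other tested cytokines, 1 rose, against 0.246% of all tested genes. This was Il10, at 361, 203 and 285 CPM in RBM3KO and 129, 162 and 154 CPM in WT (0.93, SE 0.19, edgeR adjusted p = 0.0393), and the other 17 did not pass, with a median log2 fold change of 0.41 over the 18. Leaving out RBM3KO replicate 2 kept the Il10 call, and leaving out any other library ended it (adjusted p 0.0911 to 0.211). Replicate number as a block ended it too (adjusted p = 0.0607). Of the 18 other cytokines, 15 had estimates above 0 and 3 below (50.9% of all tested genes were above 0). For 5 of them every RBM3KO library lay above every WT library, against 8.43% of all tested genes. At an edgeR unadjusted p under 0.05, 6 were higher, against 5.46% of all tested genes.

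Over the 6 libraries, the level of Il5 was most alike to those of Fam107b, Stxbp2 and Lat (Pearson's r of log2 CPM 0.992, 0.990 and 0.990) among 7608 genes with a mean of at least 10 CPM. Among the cytokines, Lif was nearest to Il5 (0.954) and Areg next (0.907), while Il13 stood at 0.759. Il13 was most alike to Cela1 (0.992) and Cntn1 (0.988), which shared its high value in RBM3KO replicate 2. Areg was most alike to Eya2 (0.993), Lrrfip1 (0.986) and Zfp36l1 (0.986), and the nearest genes to Il4 were H2-K1 and Dpy19l3 (both 0.996). With 6 libraries in 2 groups, such values describe these libraries only. H2-K1 belongs to a family of closely similar genes, and how reads common to them were counted is not stated, so its level is uncertain.

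Markers of other cells and of proliferation were read in the same libraries. T cells, mast cells and basophils also make several of these cytokines, and the Lin- gate is meant to leave out lineage-positive cells. The summed T cell markers lay between 683 and 884 CPM of total counts in RBM3KO and between 614 and 753 CPM in WT. The most abundant were Lat, Cd3g and Ubash3a, at means of 335, 243 and 170 CPM in RBM3KO and 273, 177 and 150 CPM in WT. They made up most of the sum. For Lat every RBM3KO library lay above every WT library (0.30 on the log2 scale, edgeR adjusted p = 0.187), which held for 8.43% of all tested genes. Of the 9 tested T cell markers, 4 had estimates above 0 and 5 below. Among the latter, Cd3d had means of 7.73 CPM in RBM3KO and 16.7 CPM in WT. Cd3e lay at 15.7 to 29.7 CPM in RBM3KO and 16.04 to 32.8 CPM in WT. The summed mast cell and basophil markers lay between 83.9 and 126 CPM in RBM3KO and between 76.7 and 108 CPM in WT. Kit made up most of this sum, at means of 82.6 CPM in RBM3KO and 68.1 CPM in WT. Cpa3 had means of 13.5 CPM in RBM3KO and 17.1 CPM in WT. Mcpt8, the basophil protease, lay between 0.783 and 2.39 CPM in RBM3KO and between 0.548 and 8.87 CPM in WT. Fcer1a, Ms4a2, Tpsb2 and Mcpt4 were not in the count table, so the sum says little of mast cell and basophil content. Both sums overlapped between the genotypes, and 0 of 9 and 0 of 4 tested markers passed. Cd5, a T cell marker under the filter on low counts, had 0 counts in every RBM3KO library and 18, 4 and 0 in WT. Markers of eosinophils, of macrophages, monocytes and dendritic cells, of epithelium and of stroma and endothelium overlapped in their sums, with 0 of 1, 0 of 8, 0 of 6 and 0 of 3 tested markers passing, and RBM3KO replicate 3 stood apart in the epithelial sum at 277 CPM. Of the 8 tested markers of macrophages, monocytes and dendritic cells, 6 had estimates below 0, with a median log2 fold change of -0.94. The monocyte marker Ly6c2 had 1.63, 8.36 and 6.33 CPM in RBM3KO and 21.3, 73.8 and 26.9 CPM in WT, with no overlap (-2.91 on the log2 scale, edgeR adjusted p = 0.0525). Ly6c2 passed with DESeq2 (adjusted p = 2.27e-05), at the 10 CPM filter (0.0429), at equal depth (0.0276) and with replicate number as a block (0.0105). The adjusted p over all alternatives ran from 2.27e-05 to 0.212. The summed ILC markers, of which 1 of 10 rose (Il2rg), did not overlap, at 7640.0 to 7920.0 CPM in RBM3KO and 6280.0 to 6640.0 CPM in WT. Their median log2 fold change was 0.45, against 0.60 for the tested cytokines, and 9 of 10 estimates were above 0. For 7 of these 10 markers every RBM3KO library lay above every WT library, against 8.43% of all tested genes. The summed cell cycle genes lay between 2560.0 and 2710.0 CPM in RBM3KO and between 4080.0 and 4850.0 CPM in WT. Of the 20 cell cycle genes 13 fell and 0 rose, against 1.0% and 0.246% of all tested genes, among them Ube2c and Ccna2 (log2 fold changes -1.55 and -1.46). B cell markers, of which 0 of 5 tested passed, summed to 38.3 to 42.3 CPM in RBM3KO and 61.2 to 89.0 CPM in WT. All 5 had estimates below 0, with a median log2 fold change of -2.2. For 3 of them every RBM3KO library lay below every WT library, against 10.5% of all tested genes. Cd79a had means of 4.46 CPM in RBM3KO and 15.7 CPM in WT (-1.81 on the log2 scale, edgeR adjusted p = 0.0542). The part of these shifts in the cytokine values was not tested, and in sorted bulk samples more producing cells and more RNA per cell cannot be told apart.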

How the data were processed

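The deposited table holds raw counts for 14416 gene symbols in 6 sample columns. Build mm10 and the tools STAR 2.6.1c, featureCounts 1.6.5 and Bowtie 1.0.0 are listed, without their roles, in the submitters' processing notes, and neither annotation nor strand setting is stated. Per the labels' protocols, libraries were made by Smart-seq2 and Nextera XT, so antisense reads and PCR copies may be counted.

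Genes were filtered with filterByExpr (11382 of 14416 kept, 99.9% of counts), scaled by TMM and tested between genotypes by robust quasi-likelihood F-tests in edgeR 4.0.16 (R 4.3.3; no covariate), with Benjamini-Hochberg adjustment over all tested genes and calls at an adjusted p under 0.05. Differences run RBM3KO minus WT. Their SE is the size over the square root of F, and 95% intervals use the fit's degrees of freedom. Levels are TMM-normalised CPM, and summed marker levels are CPM of total counts. DESeq2 1.42.0 and limma 3.58.1 served as alternatives. The fit was tested on simulated data. No 2 libraries agreed within sampling noise (lowest chi-square per degree of freedom 21.5). The labels do not say whether replicates are separate animals, so p-values measure the spread between samples. A 3 against 3 design cannot give an exact permutation p under 0.1.

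Symbols were matched to GENCODE M21 (same assembly as mm10): 90.4% by symbol, 8.32% by an older symbol, 1.24% not. Promoters are RefSeq's, and all 10 cytokine genes matched.

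The cytokine genes and lists were chosen with earlier results of these data known. Named are the 10 cytokines, Rbm3, up to 4 called members per list (or the 2 most abundant), tested neighbours in the cluster, and the 3 genes most alike to Il4, Il5, Il13 and Areg. Not every such gene is printed. The cell markers Cd3e, Cd3d, Ubash3a, Cd5 and Mcpt8 were singled out after their values were seen.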

Additional observations from a re-analysis of the deposited data

How the results depend on the processing

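The number of genes changed, 142 as reported, was 414 with DESeq2 and lay between 12 and 99 with 1 library left out. In this section, as reported means in this report's edgeR fit without covariate, and not in the submitters' own analysis. Genes higher in RBM3KO, 28 as reported, numbered 48 with no filter, 153 with DESeq2, 59 where 3 libraries had to reach 10 CPM and 52 with limma-voom, and between 1 and 18 with 1 library left out; genes lower, 114 as reported, numbered 261 with DESeq2 and between 11 and 85 with 1 library left out. Of the cytokine genes, 0 as reported, 4 passed with DESeq2, 1 each with limma-voom, at equal depth, with no filter, at the 10 CPM filter and with the replicate block, and 0 to 2 with 1 library left out. Il5 passed at a log2 fold change of 0.48 with no filter, at 10 CPM or more and with limma-voom, and at 0.49 with DESeq2 and at equal depth. DESeq2 called Il4 (1.05), Il13 (0.55) and Lif (0.61). With 1 library left out, the log2 fold change ran from 0.91 to 1.30 for Il4, 0.42 to 0.59 for Il5, 0.28 to 0.69 for Il13, 0.50 to 0.97 for Areg, 0.49 to 0.75 for Lif and -0.10 to 0.38 for Il2. Il2 turned to -0.0022 without RBM3KO replicate 3 and -0.10 without WT replicate 2. Rad50 turned to -0.0049 with limma-voom and -0.02 at equal depth, and ran from -0.07 to 0.30 with 1 library left out, as Irf1 did from -0.05 to 0.16 and Kif3a from -0.13 to 0.31. The cause of these shifts was not tested. Fits with 1 library left out also have a smaller group, whose part was not separated from that of the library.

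The deviations of samples that share a replicate number had r over genes of 0.0555, 0.0574 and 0.00531. Pairs with unlike numbers ran from -0.0692 to 0.0212. Values this small cannot settle whether the numbers pair the samples, and the labels do not say. The replicate block called 149 genes in place of 142, and Areg at 0.72 (adjusted p = 0.0375), and ended the calls of Il2rg (0.0535) and Il10 (0.0607), and called Ly6c2 (-2.96, adjusted p = 0.0105). The other genes whose alternatives were computed had the same call with the block. Il9, Il2 and Csf2 rest on low counts, and Il3 on fewer reads than the filter asks for. Il9 and Csf2 also varied between libraries, with an SD over mean of 83.8% and 35.0% in RBM3KO and 77.6% and 39.6% in WT. The parts of depth and of this spread in the wide intervals were not tested, and little can be said of these genes.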
